A study of Mus musculus with 6 samples.

Results

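The genes described here are 9 genes with known roles in lymphoid priming, the low-level use of lymphoid programmes by stem and progenitor cells before commitment: Satb1, Ikzf1, Ikzf2, Tcf3, Bcl11a, Mef2c, Sox4, Il7r and Dntt. The rule picks them by symbol alone and uses no measured value, but the list was drawn up with earlier results of these data known. Of the 9 genes 8 had a row among the 16312 genes of the deposited count table. Dntt, which encodes the polymerase that adds nucleotides at antigen receptor joints, was not analysed here. All 8 passed the filter on low counts. RNA came from haematopoietic stem cells (HSCs) sorted from bone marrow of male B6 mice, which the series title names as C57BL/6N. The old group held 3 libraries from control mice of 22 months, and the young group held 3 libraries from control mice of 8 to 12 weeks. Both groups were controls of a parabiosis study, in which animals are joined surgically, and the labels name no other treatment or allele. The design text calls the 3 samples of an age biological replicates, and the sources used here do not give the markers of the sort.

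HSCs give rise to lymphocytes through multipotent progenitors that gain Flt3 and begin to transcribe lymphoid genes. Ikaros (Ikzf1) and the E protein E2A (Tcf3) are transcription factors that prime these genes, Satb1 folds chromatin around lymphoid loci, and Bcl11a and Mef2c are needed for early B lymphoid development in mice. Sox4 acts in B cell progenitors, and Il7r encodes the receptor chain through which committed lymphoid progenitors receive interleukin 7. A shift of HSC output away from lymphocytes is a well known feature of aged mouse bone marrow.

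The total count per library was 12494557 to 23583985 in old mice and 21386745 to 30931680 in young mice. HSC markers were present in every library, with Kit at 829 to 918 CPM in old and 826 to 930 CPM in young mice, where CPM is the count relative to the scaled size of the library. Cd48, which HSCs lack and many progenitors carry, was at 0 to 0.970 CPM in old and 0.901 to 3.09 CPM in young mice. Libraries of the ages also differed outside the lymphoid genes. Of 18 measured macrophage and monocyte markers 9 fell and none rose, where 1.54% of all tested genes fell. Adgre1, Cd5l, Fcna and C1qb stood at 0 CPM throughout the old group, and C1qc at 0.211 CPM in old replicate 1 alone. Genes this low in old mice passed the filter on low counts only through their young libraries. They could thus enter the test only with lower values in old mice. Most abundant of the 18 was Lyz2, the lysozyme gene, at 171 to 199 CPM in old and 129 to 174 CPM in young mice. The other 17 summed to 46.3 to 53.02 CPM in old and 104 to 137 CPM in young mice. Of 20 proliferation genes 14 fell and none rose, with sums of 2120 to 2765 CPM in old and 4187 to 4903 CPM in young mice. Of 13 HSC markers Procr and Slamf1, which encode the surface proteins EPCR and CD150, rose. DESeq2 also called Fgd5 and Hoxb5 higher, and without old replicate 1, the 1 old library with counts of Cd48, Cd48 was called lower (edgeR adjusted p = 0.0397). Of 12 erythroid markers 3 fell, and of 6 neutrophil markers 4 fell and 1 rose. Most of the erythroid sum was Car2, a carbonic anhydrase gene, at 698 to 870 CPM in old and 734 to 910 CPM in young mice, and the other 11 erythroid markers summed to 90.3 to 101 CPM in old mice, against 410.2, 154 and 130.2 CPM in young replicates 1 to 3. Prtn3, a granule protease gene and the neutrophil marker that rose, stood at 69.5 to 94.5 CPM in old and 25.04 to 29.2 CPM in young mice, whereas the other 5 summed to 5.10 to 7.88 CPM in old mice, against 218, 16.1 and 44.97 CPM in young replicates 1 to 3. Without Car2 and Prtn3, both sums were thus lower in every old library than in any young one, and highest in young replicate 1. The part of these differences in the results below was not tested. No batch is named in the labels, but the library numbers of the old mice follow each other and those of the young mice are scattered, so a step that went by library number and age cannot be told apart.

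Of the 8 genes, Satb1 fell and Mef2c rose in HSCs of old mice, and the other 6 did not pass an adjusted p of 0.05 (edgeR's quasi-likelihood test, Benjamini-Hochberg over 14288 genes). Satb1 was 3.70-fold lower and Mef2c 1.49-fold higher. Thus 1 of 8 fell, where 1.54% of all tested genes did, and 1 of 8 rose, where 2.45% did, for a list that was not drawn up blind to these data. In either direction 3.99% of tested genes were called. An unadjusted p under 0.05 in edgeR was reached by 5 of the 8 genes. The largest of these 5, 0.0449 for Sox4, ranked at 2222 among 14288 genes, so at least 2222 of them had such a p. The median log2 fold change (old over young) of the 8 genes was −0.38, beside −0.017 over all tested genes, and 6 of the 8 had a negative value. The libraries of old and young mice did not overlap for 4 of the 8 genes, Satb1, Ikzf1 and Ikzf2 on the lower side and Mef2c on the higher side, and for 22.4% of all tested genes (10.8% lower and 11.6% higher in old mice). In RNA of sorted cells, fewer cells that express a gene and less RNA per cell cannot be told apart.

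**Figure D1:**
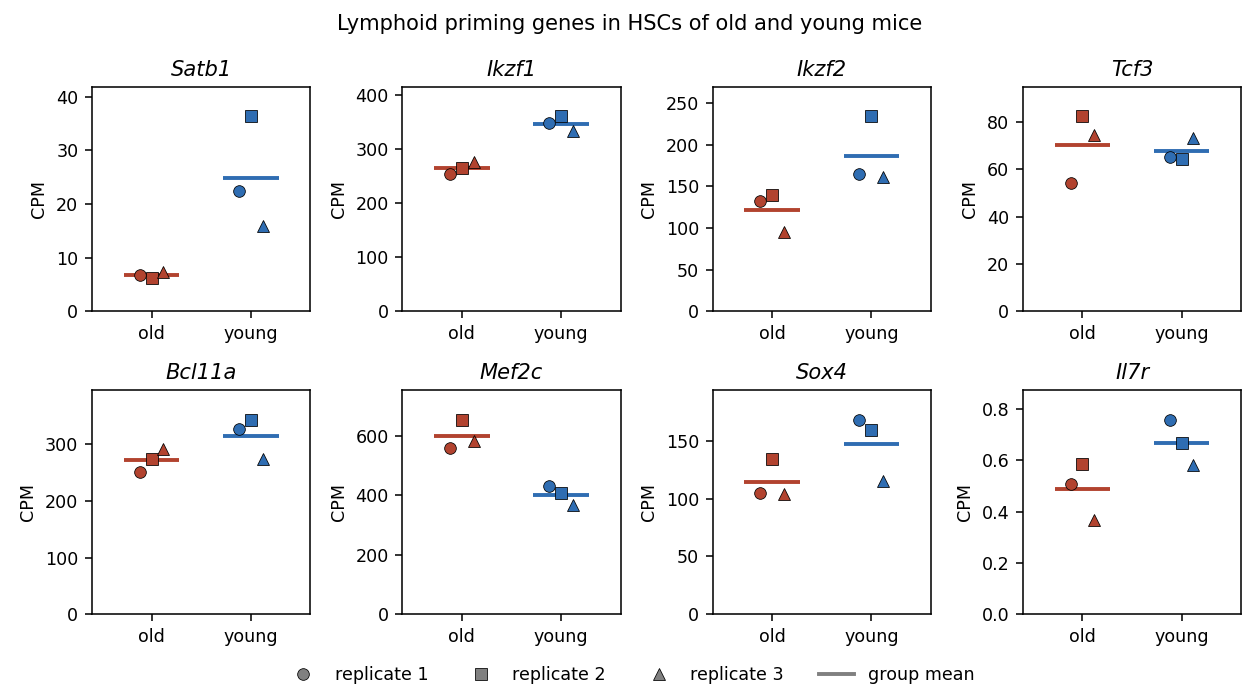
CPM of the 8 measured lymphoid priming genes in each library, with old mice on the left and young mice on the right of each panel, 1 symbol per replicate and a line at the group mean. Satb1 ran from 6.12 to 7.24 CPM in old and from 15.9 to 36.3 CPM in young mice, and Mef2c was the gene with a higher level in every old library than in any young one.

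Satb1 and Mef2c are the genes the results turn on, and the windows at the RefSeq start nearest the annotated gene start, 250 bases before to 50 after it, are shown with short motifs that other genes of the group are known to bind. E proteins such as Tcf3 bind E-boxes, CANNTG, and Ikaros proteins bind sequences with the core TGGGAA. Both strands were searched, capitals mark E-boxes and Ikaros cores, and no 2 marked motifs overlap. The windows are at chr17:51833241-51833540 on the minus strand for Satb1 and at chr13:83503784-83504083 on the plus strand for Mef2c, in GRCm38.p6.
Satb1: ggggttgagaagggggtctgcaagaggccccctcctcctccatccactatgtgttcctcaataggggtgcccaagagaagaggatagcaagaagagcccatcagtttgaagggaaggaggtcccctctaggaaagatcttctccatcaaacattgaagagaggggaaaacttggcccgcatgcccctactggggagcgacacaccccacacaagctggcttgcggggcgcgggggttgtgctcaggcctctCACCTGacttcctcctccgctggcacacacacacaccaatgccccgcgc
Mef2c: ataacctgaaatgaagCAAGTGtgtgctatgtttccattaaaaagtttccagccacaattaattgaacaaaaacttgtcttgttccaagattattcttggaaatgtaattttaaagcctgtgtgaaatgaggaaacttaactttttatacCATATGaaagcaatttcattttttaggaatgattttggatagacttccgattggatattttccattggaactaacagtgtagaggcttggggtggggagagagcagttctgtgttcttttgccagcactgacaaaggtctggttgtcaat
The Satb1 window held 1 E-box, of the form CACCTG, which 20.2% of 32817 such windows in the RefSeq table hold on either strand. The Mef2c window held 2 E-boxes, neither of them CACCTG or CAGCTG, and neither window held TGGGAA. Of the 7 genes with a window in the table, 6 held at least 1 CANNTG, against 72.3% of all windows, and Bcl11a and Sox4 held TGGGAA, against 25.6%. Ikzf2 had no entry. A match of letters is a description of these windows, and reads were counted per gene, so the start used in these cells was not measured. RefSeq lists 5 windows for Satb1 and 3 for Mef2c.

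Satb1, the chromatin organiser, had the largest change of the 8 genes. It lies on chromosome 17 from 51736187 to 51833290 on the minus strand (GRCm38, GENCODE M21). Its level was 6.75, 6.12 and 7.24 CPM in old replicates 1 to 3, against 22.5, 36.3 and 15.9 CPM in young replicates 1 to 3. Every old library was below every young one, and the spread was narrow in old mice and wide in young mice. The coefficient of variation was 8.33% in old and 41.9% in young mice. Behind these levels stood 160, 73 and 158 counts in old and 474, 926 and 519 counts in young libraries. Satb1 averaged 6.70 ± 0.558 CPM in old and 24.9 ± 10.4 CPM in young mice (SD, n = 3 each), so the old mean was 26.9% of the young mean. Its log2 fold change was −1.89 ± 0.32 SE with a 95% interval of −2.59 to −1.18 (edgeR adjusted p = 0.00646), and it ranked at 191 among 14288 genes by p. Intervals here and below are not adjusted for the number of genes. Young replicate 2, with the highest level, is the library whose label carries another library number in its description than in its title. Without it the log2 fold change was −1.51 (edgeR adjusted p = 0.0263).

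Satb1 is abundant in T cells, so T and NK lineage genes are given beside it. Of 11 measured genes of that list 1 passed in edgeR, Klrb1c, the NK cell receptor NK1.1, which rose with a log2 fold change of 3.04. Cd3d, a chain of the T cell receptor complex, stood at 2.24 to 4.30 CPM in old and 2.70 to 2.86 CPM in young mice. The values of Cd4, the coreceptor of helper T cells, were 0.759, 0.671 and 0.321 CPM in old replicates 1 to 3, against 0.569, 10.1 and 5.23 CPM in young replicates 1 to 3. Cd4 was thus highest in young replicate 2, as Satb1 was, and in young replicate 1 it lay within the range of old mice. Cd4 did not pass in all libraries (edgeR adjusted p = 0.07) but was called lower with DESeq2 (adjusted p = 0.00323) and without young replicate 1 (edgeR adjusted p = 0.00784). The 10 genes of the list other than Klrb1c summed to 48.9, 51.2 and 52.4 CPM in old replicates 1 to 3. In young replicates 1 to 3 that sum was 43.2, 62.4 and 44.3 CPM, highest in young replicate 2. Cd3d and Cd4 were chosen after their values were seen. The part of T cells in the Satb1 result was not tested.

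Mef2c, a MADS box transcription factor, moved the other way. It lies on chromosome 13 from 83504034 to 83667080 on the plus strand. It stood at 560, 653 and 581 CPM in old replicates 1 to 3, against 431, 408 and 367 CPM in young replicates 1 to 3. The groups did not overlap, and each of the 6 libraries held between 7791 and 13268 counts of the gene. Mef2c averaged 598 ± 49.1 CPM in old and 402 ± 32.3 CPM in young mice (SD, n = 3 each). The log2 fold change was 0.57 ± 0.11 SE with an interval of 0.34 to 0.80 (edgeR adjusted p = 0.0101). The call was lost without old replicate 2, the library with the highest Mef2c level (log2 fold change 0.51, edgeR adjusted p = 0.0569).

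Of the Ikaros family of zinc finger factors, Ikzf1 and Ikzf2 had lower levels in each old library than in any young one and did not pass the test. Ikzf1, Ikaros itself, lies on chromosome 11 from 11685003 to 11772926. It stood at 254, 265 and 278 CPM in old replicates 1 to 3, against 348, 361 and 334 CPM in young replicates 1 to 3. The difference was small but the replicates were tight, with a coefficient of variation of 4.36% in old and 3.92% in young mice. The log2 fold change was −0.39 ± 0.099 SE, with an interval of −0.60 to −0.17 (edgeR adjusted p = 0.0512). Ikzf1 passed in 3 of 11 alternatives, DESeq2 (adjusted p = 0.0114), library size as the scaling (edgeR adjusted p = 0.021) and limma-voom with quality weights (adjusted p = 0.0283).

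Ikzf2, which encodes Helios, lies on chromosome 1 from 69531214 to 69687245. Its level was 132, 139 and 95.5 CPM in old replicates 1 to 3, against 165, 234 and 161 CPM in young replicates 1 to 3. The highest value was again in young replicate 2, and the lowest in old replicate 3. Its log2 fold change was −0.61 ± 0.18 SE, with an interval of −1.0 to −0.22 (edgeR adjusted p = 0.0854), and it passed with DESeq2 (adjusted p = 0.015) and in none of the other 10 alternatives.

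**Figure D2:**
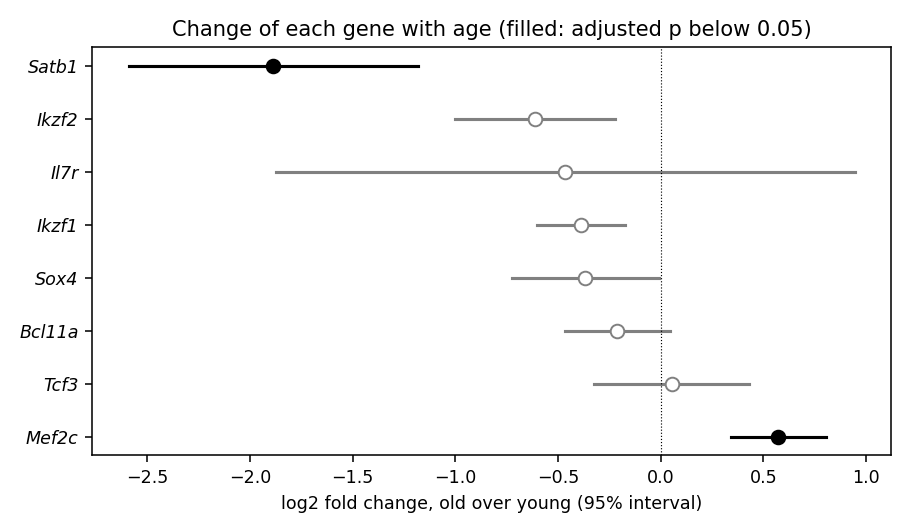
Log2 fold change of each gene, old over young, with its 95% interval from edgeR's quasi-likelihood fit on the x axis; filled points passed an adjusted p of 0.05. Satb1 at −1.89 and Mef2c at 0.57 passed, and the intervals of Tcf3, Bcl11a and Il7r spanned 0.

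Sox4, Bcl11a and Tcf3 gave no call, and their groups overlapped. Sox4, on chromosome 13 from 28948919 to 28953713, stood at 105, 134 and 104 CPM in old replicates 1 to 3, against 168, 159 and 115 CPM in young replicates 1 to 3. Young replicate 3 lay among the old libraries. The log2 fold change of Sox4 was −0.37, with an interval of −0.72 to −0.0098 (edgeR adjusted p = 0.289). Bcl11a, a zinc finger repressor on chromosome 11 from 24078056 to 24174123, stood at 250, 274 and 291 CPM in old replicates 1 to 3, against 327, 343 and 274 CPM in young replicates 1 to 3. Young replicate 3 was again the one within the range of old mice. The interval of the log2 fold change of Bcl11a was −0.47 to 0.044 (edgeR adjusted p = 0.413).

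Tcf3, on chromosome 10 from 80409514 to 80433647, stood at 54.1, 82.4 and 74.3 CPM in old replicates 1 to 3, against 65.1, 64.4 and 73.3 CPM in young replicates 1 to 3. The old libraries spread to both sides of the young ones, and the interval of the log2 fold change was −0.32 to 0.43 (edgeR adjusted p = 0.921). The sign of its log2 fold change, 0.054, was not the same under every setting. It was −0.0079 with library size as the scaling, −0.075 with limma-voom and −0.069 without old replicate 2.

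Il7r was near the limit of detection in both ages. The gene lies on chromosome 15 from 9505788 to 9530176. It had 12, 7 and 8 counts in old replicates 1 to 3, against 16, 17 and 19 counts in young replicates 1 to 3. These are 0.506, 0.587 and 0.366 CPM in old and 0.759, 0.667 and 0.581 CPM in young mice, where 3 counts of a library are 0.0917 to 0.252 CPM. The interval of its log2 fold change was −1.87 to 0.95 (edgeR adjusted p = 0.795), so no difference was detected, and the interval was wide at these counts. Of 10 other genes of interleukin 7 signalling, none passed in edgeR, DESeq2 or limma-voom and 1 had an unadjusted p under 0.05 in edgeR, and their median log2 fold change was 0.28. The 2 with the smallest p were Bcl2, a survival gene, with 265, 199 and 266 CPM in old replicates 1 to 3 against 184, 200 and 210 CPM in young replicates 1 to 3 (edgeR adjusted p = 0.283), and Il2rg, the shared receptor chain that pairs with Il7r, at 45.7 to 65.0 CPM in old and 40.1 to 47.4 CPM in young mice (edgeR adjusted p = 0.387).

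Levels of different genes were compared per kilobase of the union of their annotated exons. Ikzf1 came first in both ages, with 44.04 to 48.04 CPM per kilobase in old and 57.8 to 62.5 in young mice. Mef2c was second in old mice, at 35.6 to 41.6 CPM per kilobase, without overlap with its neighbours in the order. In young mice Mef2c, at 23.4 to 27.4 CPM per kilobase, overlapped with Sox4 (24.1 to 35.1) and Bcl11a (20.8 to 26.0). In old mice Sox4 (21.8 to 28.0 CPM per kilobase) overlapped with Bcl11a (19.0 to 22.1), and Bcl11a overlapped with Tcf3 (13.4 to 20.4). Ikzf2 lay below Tcf3 in old mice, at 8.22 to 12.0 CPM per kilobase, and overlapped with it in young mice, where Tcf3 stood at 15.9 to 18.2 and Ikzf2 at 13.9 to 20.1. Satb1 was far below these 6 genes, at 0.322 to 0.380 CPM per kilobase in old and 0.834 to 1.91 in young mice. Il7r was lowest, at 0.0786 to 0.126 CPM per kilobase in old and 0.125 to 0.163 in young mice. Annotated transcripts of very different length make up these unions, 19027 bases for Satb1 and 4663 for Il7r, so the scale is approximate.

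Ratios within a library depend on its scaling only through the 0.1 CPM added to both genes. The 9 ratios of these genes to relatives or partners were compared with two-sided exact permutation tests. With 20 arrangements of the libraries, the smallest possible p was 0.1. Satb1 relative to Ikzf1 had a log2 ratio of −5.29 ± 0.107 in old and −3.88 ± 0.541 in young mice (SD, n = 3, exact permutation p = 0.1, adjusted 0.225). Mef2c relative to its paralog Mef2a was 1.90 ± 0.120 in old and 1.41 ± 0.192 in young mice (SD, n = 3, exact permutation p = 0.1, adjusted 0.225). For both ratios the groups did not overlap. The ratio of Mef2c to the paralog Mef2d overlapped between the ages (exact permutation p = 0.2, adjusted 0.36). Ikzf1 relative to its paralog Ikzf5 was 2.20 ± 0.221 in old and 2.81 ± 0.0830 in young mice (SD, n = 3, exact permutation p = 0.1, adjusted 0.225), again without overlap. Ikzf1 relative to Ikzf2 was 1.14 ± 0.346 in old and 0.919 ± 0.253 in young mice and overlapped (SD, n = 3, exact permutation p = 0.6, adjusted 0.675).

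Tcf3 was also set against Id2, an inhibitor that binds E proteins and keeps them off DNA. The log2 ratio of Tcf3 to Id2 was 1.84, 2.25 and 2.28 in old replicates 1 to 3, against 2.88, 3.55 and 4.09 in young replicates 1 to 3 (exact permutation p = 0.1, adjusted 0.225). The groups did not overlap. Tcf3 itself gave no call, whereas Id2 stood at 15.1, 17.2 and 15.2 CPM in old replicates 1 to 3, against 8.77, 5.41 and 4.22 CPM in young replicates 1 to 3, and rose, as the only call of 2 measured Id genes, with a log2 fold change of 1.37 ± 0.33 SE (edgeR adjusted p = 0.0417). Its call was lost without any 1 library other than young replicate 1 (edgeR adjusted p up to 0.132). Against the other E protein genes Tcf4 and Tcf12, Tcf3 gave ratios that overlapped between the ages (exact permutation p = 0.5 and 0.8, adjusted 0.643 and 0.8).

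**Figure D3:**
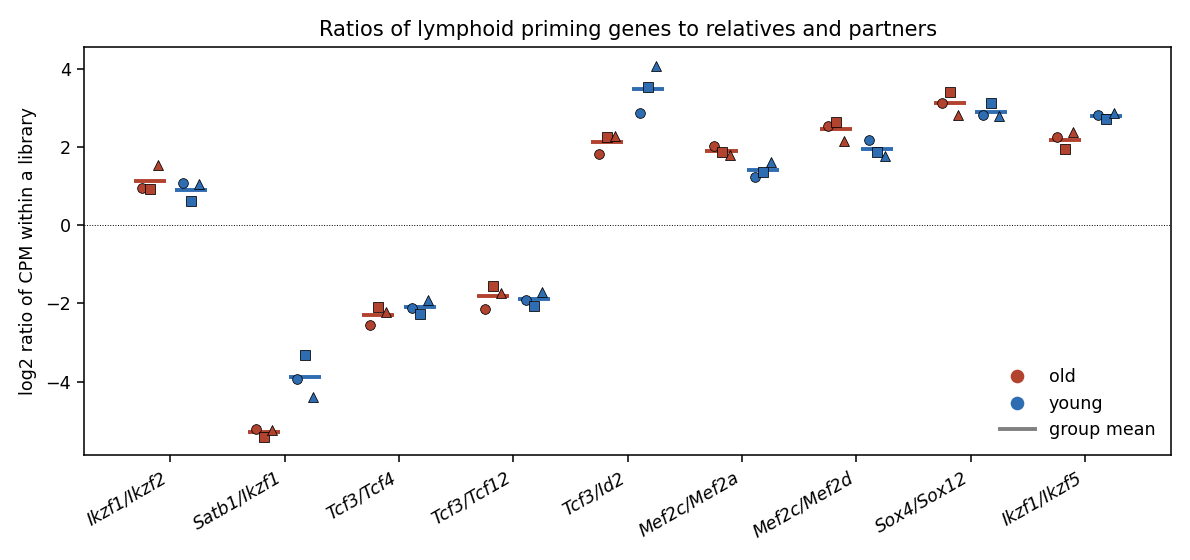
Log2 ratio of the CPM of each pair of genes within each library, with old libraries to the left of young ones, symbols for replicates and lines at group means. Satb1/Ikzf1, Tcf3/Id2, Mef2c/Mef2a and Ikzf1/Ikzf5 are the 4 ratios whose groups did not overlap. Each holds a gene whose own CPM did not overlap between the ages (Satb1, Ikzf1, Id2 or Mef2c), so these ratios are not separate from the results of single genes. No share over other gene pairs was computed.

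Flt3, Cd34 and Notch1, which were left out of the group, are given here as early progenitor genes in the same libraries. Flt3, the cytokine receptor of multipotent progenitors, stood at 13.8, 11.7 and 10.2 CPM in old replicates 1 to 3, against 32.6, 39.6 and 40.4 CPM in young replicates 1 to 3, and Cd34 at 53.7 to 62.2 CPM in old and 122 to 126 CPM in young mice. Flt3 fell 3.16-fold and Cd34 2.16-fold (edgeR adjusted p = 0.00136 and 0.000555), while Notch1, the receptor that directs T lineage commitment, ran from 51.8 to 69.1 CPM in old and from 43.8 to 70.9 CPM in young mice (edgeR adjusted p = 0.92). Flt3 and Cd34 were the only genes called in edgeR among 15 measured early lymphoid progenitor genes, and the median log2 fold change of the 15 was −0.091. Cux1, also among the 15, stood at 387 to 399 CPM in old and 485 to 522 CPM in young mice (edgeR adjusted p = 0.0667). Its level was called lower with DESeq2 (adjusted p = 0.0206), limma-voom (adjusted p = 0.0349) and library size as the scaling (edgeR adjusted p = 0.0357). The sources used here do not give the markers of the sort, and the part of the sort in these values was not tested. Rag2, which cuts DNA for antigen receptor assembly, was among the 15, was chosen after its value was seen and stood at 1.28 to 3.02 CPM in old and 2.35 to 2.90 CPM in young mice.

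Among 13 measured paralogs of the 9 listed genes none passed in edgeR or limma-voom and 1, Ikzf4, passed in DESeq2, while 4 had an unadjusted p under 0.05 in edgeR. Their median log2 fold change was 0.23. The 2 with the smallest p were Ikzf4, which encodes the Ikaros relative Eos, and Polm, a relative of Dntt. Ikzf4 stood at 25.9, 23.7 and 30.3 CPM in old replicates 1 to 3, against 18.7, 14.6 and 15.3 CPM in young replicates 1 to 3 (edgeR adjusted p = 0.105). Its groups did not overlap, and its values lay higher in old mice, whereas those of Ikzf1 and Ikzf2 lay lower. Polm stood at 2.75 to 3.44 CPM in old and 0.569 to 1.45 CPM in young mice (edgeR adjusted p = 0.177). None of 8 measured B lineage genes passed in edgeR, and 1 of them, Foxo1, had an unadjusted p under 0.05 there and passed in DESeq2 and limma-voom. Foxo1, which activates early B cell genes and Il7r, had the smallest p of them and stood at 109, 122 and 128 CPM in old replicates 1 to 3, against 89.5, 84.0 and 63.1 CPM in young replicates 1 to 3 (log2 fold change 0.60, edgeR adjusted p = 0.0512). The groups did not overlap for Foxo1, and it passed in 4 of 11 alternatives. Vpreb3, a pre-B cell gene, had 0.633, 5.62 and 0.0458 CPM in old replicates 1 to 3 against 0.0611 to 0.853 CPM in young mice (edgeR adjusted p = 0.458), so 1 library made its mean, and the sign of its log2 fold change of 2.13 turned to −0.44 without old replicate 2.

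**Figure D4:**
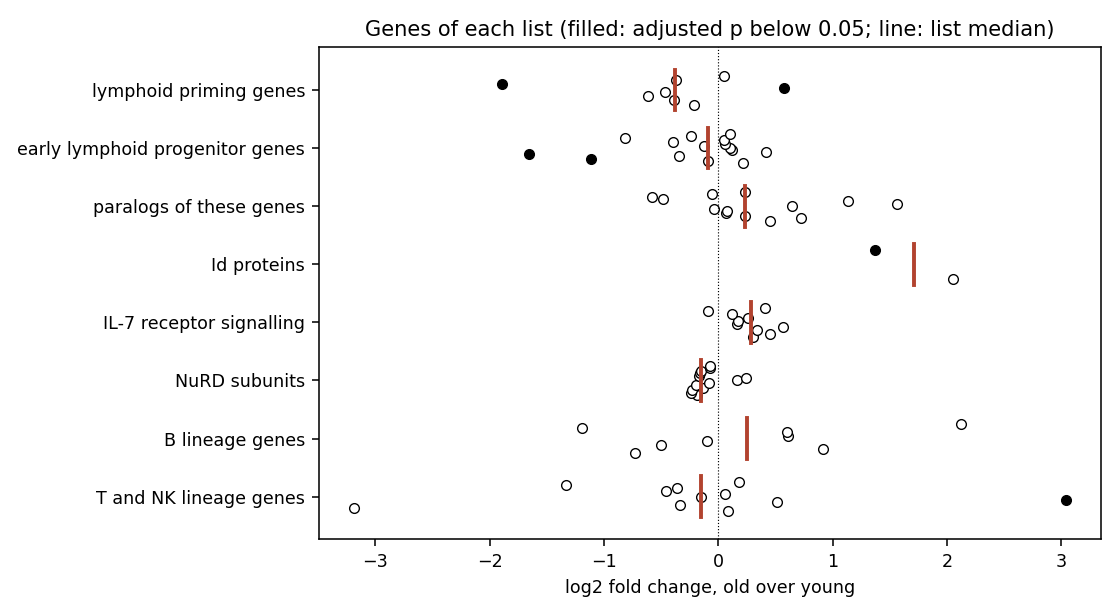
Log2 fold change, old over young, of each measured gene of 8 gene lists, 1 row per list, with filled points for an adjusted p below 0.05 in edgeR's test and a line at the list median. At most 2 genes were called in any of these lists, and the medians of the lymphoid priming genes (−0.38) and of interleukin 7 signalling (0.28) lie on different sides of 0.

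By the root mean square difference of log2 CPM, centred on each gene's mean over the 6 libraries, the genes most like Satb1 among 9247 protein-coding genes of at least 10 CPM were Nrk (0.155), Fcer1g (0.310) and Nnt (0.313). Nrk, which encodes a kinase, stood at 26.4, 21.6 and 20.8 CPM in old replicates 1 to 3, against 70.4, 105 and 49.4 CPM in young replicates 1 to 3. Like Satb1, it was highest in young replicate 2 and lowest among young mice in replicate 3. Fcer1g stood at 5.95 to 6.71 CPM in old and 11.5 to 22.5 CPM in young mice (edgeR adjusted p = 0.0183). Nnt, a mitochondrial transhydrogenase, stood at 21.8 to 31.3 CPM in old and 76.3 to 89.6 CPM in young mice. The genes most like Mef2c were Cpd (0.0327), a carboxypeptidase, Ptger3 (0.0373), a prostaglandin E2 receptor, and Nr1d2 (0.0497), a nuclear receptor of the circadian clock. Cpd stood at 150.0, 169 and 156 CPM in old replicates 1 to 3, against 112, 108 and 102 CPM in young replicates 1 to 3. These likenesses rest on 6 libraries, were picked as the smallest of 9247 differences and carry no test.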

How the data were processed

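RNA of sorted HSCs was isolated with a kit for small samples and made into low-input libraries, per the labels' protocols. The design text states single-end sequencing with a read length of 50 bases. Per the submitters' processing notes, the tools were FastQC, MultiQC, Salmon and DESeq2 and the build was GRCm38; neither versions nor the role of each tool are stated. The deposited table held the authors' estimated counts, all whole numbers, for 16312 genes in 6 libraries, matched to samples by title. The authors' deposited comparison gave a base mean signal, a log2 fold change with its error, a test score, p-values and adjusted p-values per gene. Its sign was read as young over old, because its values ran opposite to old over young in the counts.

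Symbols, positions and exon unions came from GENCODE M21 (GRCm38) by Ensembl identifier without version, and promoter windows from RefSeq (GRCm38.p6). Genes were filtered by edgeR's default rule (minimum count 10, minimum total 15), scaled by TMM and tested across all 14288 remaining genes in R 4.3.3 with edgeR 4.0.16, group as the only term, a quasi-likelihood F test and Benjamini-Hochberg adjustment at 0.05. Standard errors were taken from the F statistic, and 95% intervals used its degrees of freedom. Alternatives were DESeq2 1.42.0, limma 3.58.1 (voom with quality weights), RLE scaling, library size alone, no filter and leaving out each library. Ratios used 0.1 CPM added to both genes. The fits were tested on simulated data. P-values of the fits set the difference between the ages against the spread between these samples, estimated in part across genes. Those of the ratios rank the observed arrangement of the libraries among all arrangements. Limits of 3 counts cover counting error only.

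The genes and lists were chosen with earlier results of these data known. All genes of the group are named. A rule named the called genes of each other list (up to 4) or else the 2 with the smallest p, markers of other cell types are mostly given as counts and sums, and genes named beyond this were chosen after their values were seen or as partners in a ratio. Counting was not stated to use strand. No gene that overlaps one of the 8 in the annotation had a row in the table.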

Additional observations from a re-analysis of the deposited data

How the results depend on the processing

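Of the 8 genes, Satb1 was called lower in all 11 alternatives (log2 fold change −2.13 to −1.51, adjusted p up to 0.0403), and Mef2c was called higher in 10, the exception being the fit without old replicate 2. The count of called genes of the group was 4 with DESeq2, 3 of them lower, and 1 to 2 with 1 library left out. Over all genes 1100 were called with DESeq2 and 245 to 473 with 1 library left out, 322, 345 and 245 without old replicates 1, 2 and 3, against 570. Genes of the other lists gave 19 to 37 calls with 1 library left out, 23 without old replicate 1 and 19 without old replicate 3, against 38. Calls among macrophage markers numbered 5 and 3, and among proliferation genes 8 and 6, without old replicate 1 and without old replicate 3, and 9 proliferation genes were called without young replicate 1 or young replicate 3. Values that changed sign were the log2 fold change of Tcf3 (−0.0079 with library size alone, −0.075 with limma-voom, −0.069 without old replicate 2, and −0.069 to 0.22 with 1 library left out), that of Vpreb3 (−0.44 without old replicate 2, −0.44 to 2.85 with 1 library left out) and the difference in the Tcf3/Tcf12 log2 ratio (0.090 in all libraries, −0.037 to 0.25 with 1 left out, −0.037 without old replicate 2). The other 8 ratio differences kept their sign in the 7 alternatives run. The causes were not tested. No paired analysis was possible because the labels give the ages no shared replicate numbers. Replicates of an age are numbered here in the order of their library numbers, so equal numbers in both ages mark no pair. With DESeq2 2 T and NK lineage genes and 4 HSC markers were called, against 1 and 2. Without young replicate 1 there were 2 T and NK lineage calls, and without old replicate 1 or young replicate 2 there were 3 HSC marker calls. Without any 1 library 1 to 7 neutrophil markers were called, against 5. Depth limits Il7r, at 7 to 12 counts in old and 16 to 19 counts in young libraries.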

Other observations

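Ikaros and Bcl11a act with the NuRD complex, which remodels nucleosomes and removes acetyl groups from histones. None of 13 NuRD subunit genes passed in edgeR, DESeq2 or limma-voom and 1 had an unadjusted p under 0.05 in edgeR, and their median log2 fold change was −0.15, with 11 of 13 below 0. The 2 with the smallest p were Chd4, the remodelling enzyme, at 645, 587 and 545 CPM in old replicates 1 to 3 against 663, 760 and 677 CPM in young replicates 1 to 3 (edgeR adjusted p = 0.265), and Gatad2a at 55.9 to 70.8 CPM in old and 61.4 to 79.9 CPM in young mice (edgeR adjusted p = 0.547).

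The authors' deposited table, which runs as young over old, gives Satb1 a log2 fold change of 1.22 with an adjusted p of 0.00252 and Mef2c one of −0.39 with an adjusted p of 0.0305. The log2 fold changes from edgeR here, as old over young, were larger in size, −1.89 and 0.57. In the authors' deposited table Ikzf1 has an adjusted p of 0.333 and Ikzf2 one of 0.175. DESeq2 as run here called both lower (adjusted p = 0.0114 and 0.015), and the cause of these differences was not tested. The other 4 genes have adjusted p-values of 0.391 to 0.931 in the authors' deposited table.

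Of 10 measured dendritic cell markers, 1 rose and none fell. It was Clec9a, a receptor for dead cells on dendritic cells, with 49.1, 37.7 and 69.2 CPM in old replicates 1 to 3 against 10.2, 16.0 and 20.5 CPM in young replicates 1 to 3 (edgeR adjusted p = 0.00565). Siglech, a marker of plasmacytoid dendritic cells, was chosen after its value was seen and stood at 0.779 to 1.56 CPM in old and 1.04 to 1.99 CPM in young mice.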
